A study of Mus musculus with 2 samples.

Results

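The genes described here are A20 (Tnfaip3) and 9 further genes. A20, Tnip1, Cyld, Ripk1, Traf1, Traf2, Birc2 and Birc3 act at or below tumor necrosis factor (TNF) receptors. Several of them are brakes or feedback regulators of NF-kB signaling. The other genes, Tnfaip2 and Litaf, are linked to TNF by name. All 10 were chosen by name, as a group, with the fold changes between these libraries already known. Every fold change below therefore describes the group and tests nothing about it. All 10 genes were found among the 55573 listed genes, and all 10 are among the 14829 genes whose reads, summed over the libraries, reached 10. The study compared mesenteric arteries, the resistance arteries that supply the gut, of wild type C57BL/6 mice aged 10 weeks. Control arteries were kept at 5 mM K+, and 60 mM K+ was used to depolarize the arteries of the second library, with 60 min given for both. Each library pooled tissue of 2 mice, tetrodotoxin was present in all solutions to silence nerves, and each condition has 1 library. No difference therefore has a replicate check, no p-value is given, and the intervals cover counting error only.

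Depth was similar, with 10480918 and 11289598 reads on genes. Smooth muscle markers fitted the labelled tissue, with a summed level of 36880 CPM (counts scaled to library size) in 5 mM K+ and 40490 CPM in 60 mM K+ over 8 genes, although Tagln had only 314 and 387 reads. Endothelial markers (8 genes) summed to 3232 CPM and 4459 CPM, and fibroblast markers (6 genes) to 5524 CPM and 5172 CPM. Macrophage markers (9 genes) summed to 50.4 CPM and 46.9 CPM. The 9 markers of other leukocytes summed to 2.485 CPM and 1.81 CPM, with Cd3g, Ly6g and S100a9 at 0 reads in both libraries. Adipocyte markers (5 genes) summed to 30.8 CPM and 14.2 CPM, pancreatic genes (8 genes, with Amy2a5 at 0 in both) to 11.7 CPM and 44.6 CPM, and markers of Schwann cells and nerve (5 genes, with Th at 0 in both) to 109 CPM and 101 CPM. In bulk tissue, more cells of a type and more RNA per cell cannot be told apart, and the part of these shifts in the values below was not tested. The methods also describe control tissue as the distal part of the ligated arteries, harvested before the rest was perfused, so that arterial segment and time in solution cannot be told apart from K+.

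When TNF binds its receptor, a complex forms on the receptor tail in which the adaptor TRAF2 brings in the ubiquitin ligases cIAP1 (Birc2) and cIAP2 (Birc3), and the kinase RIPK1 becomes decorated with ubiquitin chains. These chains recruit the kinases that release NF-kB from its inhibitors. A20 is a ubiquitin-editing enzyme that dismantles the signal, ABIN-1 (Tnip1) binds ubiquitin and A20, and CYLD is a deubiquitinase that removes the same kinds of chain. Several of these genes are themselves classic NF-kB targets, which closes a negative feedback loop. In vessels the loop is known for limiting the response of endothelium and smooth muscle to inflammatory cytokines.

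Of the 10 genes, 6 had a log2(fold-change) above 1 in 60 mM K+, namely Tnfaip3, Tnfaip2, Litaf, Birc3, Traf1 and Tnip1, while 5.54% of the 14829 genes did. None of the 10 lay below -1 (0 of 10), compared with 5.86% of all genes. With total-count scaling, which lowers every log2(fold-change) by 0.21, 601 genes of all lay above 1 and 1285 below -1, in place of 822 and 869. The group was selected on this contrast, so nothing is read from these shares. Here log2(fold-change) is the 60 mM K+ over the 5 mM K+ value after scaling the libraries by the trimmed mean of M-values (TMM). The median over the 10 genes was 1.03, compared with -0.0047 over all genes (-0.21 with total counts). In 3 genes, Tnfaip3, Tnfaip2 and Litaf, the lower end of the 95% counting interval also lay above 1, as in 1.77% of all genes. The values of Birc3, Traf1 and Tnip1 lay close to the threshold, their intervals included 1, and with total-count scaling they were 0.92, 0.85 and 0.80. All 10 genes together took 5568 control reads and 14648 after depolarization, or 0.0531% and 0.130% of each library.

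**Figure D1:**
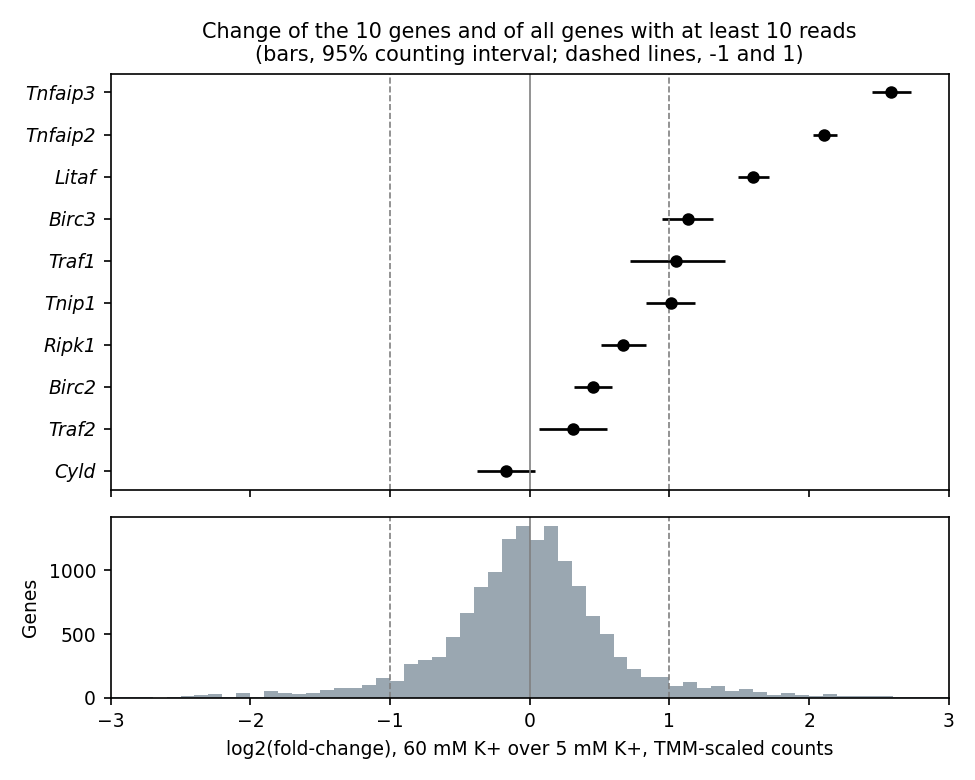
Top, log2(fold-change) of the 10 genes (60 mM K+ over 5 mM K+, 1 library each, TMM-scaled counts), with bars for the exact 95% counting interval and dashed lines at -1 and 1. Bottom, the number of genes at each log2(fold-change) among 14829 genes, of which 146 lie beyond the drawn range of -3 to 3. Tnfaip3 at 2.59, Tnfaip2 at 2.11 and Litaf at 1.60 stand clear of the upper dashed line, and Cyld at -0.17 is the only gene of the group to the left of 0.

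Letters that match the NF-kB binding consensus of 10 bases stood near an annotated start of 6 of the 10 genes. The search covered both strands from 250 bases before to 50 bases after every annotated protein-coding start. Of 13053 protein-coding genes searched in the same way, 16.49% had a match. Because these genes have from 1 to 9 distinct annotated starts, the search was also made with 1 start per gene, where 4 of 10 genes and 10.41% of all genes had a match. All 10 matches found with every start are shown with the bases around them, because some of them share letters between genes and because Cyld, which was not higher in 60 mM K+, has one as well. The sequences are from NCBIM37 (mm9), 5′ to 3′ on the strand of the gene, and capitals mark the matching bases.
Tnfaip3, chr10:18735322-18735351, minus strand: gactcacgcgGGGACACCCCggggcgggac
Tnfaip3, chr10:18735209-18735238, minus strand: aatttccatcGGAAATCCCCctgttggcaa
Birc3, chr9:7873066-7873095, minus strand: gaagagccacGGAAATCCCCagccagggtg
Birc3, chr9:7873005-7873034, minus strand: ttttcaccctGGAGTTCCCCggagccctgg
Tnip1, chr11:54776480-54776509, minus strand: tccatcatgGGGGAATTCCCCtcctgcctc
Tnip1, chr11:54769730-54769759, minus strand: caccttgcccGGAGGACCCCtacgtttgag
Tnip1, chr11:54769604-54769633, minus strand: tcggtctccgGGGACTTTCCcaggggcgtg
Litaf, chr16:10975848-10975877, minus strand: tacattgcttGGGACTTTCCtggattttgt
Tnfaip2, chr12:112680838-112680867, plus strand: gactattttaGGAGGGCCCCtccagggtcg
Cyld, chr8:91220762-91220791, plus strand: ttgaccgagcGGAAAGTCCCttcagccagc

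Some of these matches are the same letter by letter. Tnfaip3 and Birc3 both carry GGAAATCCCC, at position -12 from a Tnfaip3 start and -61 from a Birc3 start. Of 13053 genes, 22 (0.169%) had this string, in either orientation, in the window. Tnip1, Litaf and Cyld share GGGACTTTCC, which lies in Cyld in the opposite orientation and was present in 40 genes (0.306%). Both strings were picked because genes of the group were seen to share them, so nothing is read from these shares. In Tnip1 the longest match, GGGGAATTCCCC, holds 3 overlapping copies of the consensus and begins at position -86. The match of Tnfaip2, both matches of Birc3 and 1 match of Tnip1 lie within an annotated exon. No match was found in the windows of Traf1, Traf2, Ripk1 and Birc2, which says only that these letters are not there. The full cAMP response element TGACGTCA was in 0 of 10 windows and in 3.92% of all genes. Its shorter form TGACG was in 6 of 10 and in 40.33% of all genes, where the full element counts as a match of the shorter form as well. With 1 start per gene the shorter form was in 3 of 10 and 30.58% of all genes. With RefSeq starts it was in 4 of 10 and in 34.51% of the 9330 genes searched there. With the promoter starts of RefSeq (GRCm38.p6), 4 of 10 genes and 12.74% of these 9330 genes had the NF-kB consensus, and Birc2 had the full cAMP response element. A match is a description of the sequence, and binding was not measured.

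Among the editors of ubiquitin chains, A20 and its partner were higher in 60 mM K+ and CYLD was not. Tnfaip3 (chromosome 10, 18720716 to 18735463) had 490 control reads against 2749 after depolarization. This 6.02-fold difference equals 2.59 on the log2 scale, with a 95% counting interval from 2.45 to 2.73, and 89 of the 14829 genes lay higher. This was the largest value of the group. Tnip1 (chromosome 11, 54724289 to 54776419), which encodes ABIN-1, had 407 and 762 reads, giving 1.01 (0.83 to 1.18) on the log2 scale. Cyld (chromosome 8, 91220927 to 91275844) had 428 control reads against 355, which gave -0.17 (-0.38 to 0.04). The interval of Cyld included 0 with TMM scaling but not with total counts, where its value was -0.38 (-0.58 to -0.17).

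The ratio of reads between a pair of genes within a library does not depend on how the libraries are scaled. There were 1.15 Tnfaip3 reads for each Cyld read in 5 mM K+ and 7.74 in 60 mM K+, and the ratio of these ratios was 6.76 (exact 95% interval 5.68 to 8.05). A20 and ABIN-1 also moved apart. Per Tnip1 read there were 1.20 Tnfaip3 reads at 5 mM K+ and 3.61 at 60 mM K+, a ratio of ratios of 3.00 (2.56 to 3.51). Tnfaip3 and Cyld have the highest and the lowest fold change of a group selected on this contrast, so these ratios are a description.

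Of the ubiquitin ligases at the receptor, the cIAP2 gene differed more than the cIAP1 gene. Birc3 (chromosome 9, 7848699 to 7873186) went from 378 control reads to 769, a log2(fold-change) of 1.13 (0.95 to 1.31). Birc2, which lies 13.4 kb away on the same strand (chromosome 9, 7818236 to 7835255), had 797 and 1017 reads, a difference of 0.45 (0.32 to 0.59) on the same scale. Both had more reads in the depolarized library. The ratio of Birc3 to Birc2 reads went from 0.474 to 0.756, and the ratio of these ratios was 1.59 (1.36 to 1.87).

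The adaptors showed the same kind of difference within a pair. Traf1 (chromosome 2, 34797270 to 34817292), an adaptor that lacks the ligase domain of its relatives and is known as an NF-kB target, had 110 control reads against 213. The value of 1.05 (0.72 to 1.4) came with the widest interval of the group because it had the fewest reads. Traf2 (chromosome 2, 25373502 to 25402460), the adaptor that brings the cIAP ligases to the receptor, had 264 and 305 reads, or 0.31 (0.07 to 0.55). This was a small difference, which was 0.10 (-0.14 to 0.34) with total counts, an interval that includes 0. Between the pair, the ratio of Traf1 to Traf2 reads went from 0.417 to 0.698, a ratio of ratios of 1.68 (1.25 to 2.25). Ripk1 (chromosome 13, 34094232 to 34127039), the kinase that scaffolds the complex and can start cell death, had 513 and 761 reads. The log2(fold-change) of Ripk1 was 0.67 (0.51 to 0.83), and the ratio of Ripk1 to Traf2 reads differed between libraries by 1.28 (1.05 to 1.57). Exons of Ripk1 overlap exons of Serpinb6a on the opposite strand. Serpinb6a had 1458 and 1645 reads, and because no source says that counting used the strand, the Ripk1 value is uncertain.

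**Figure D2:**
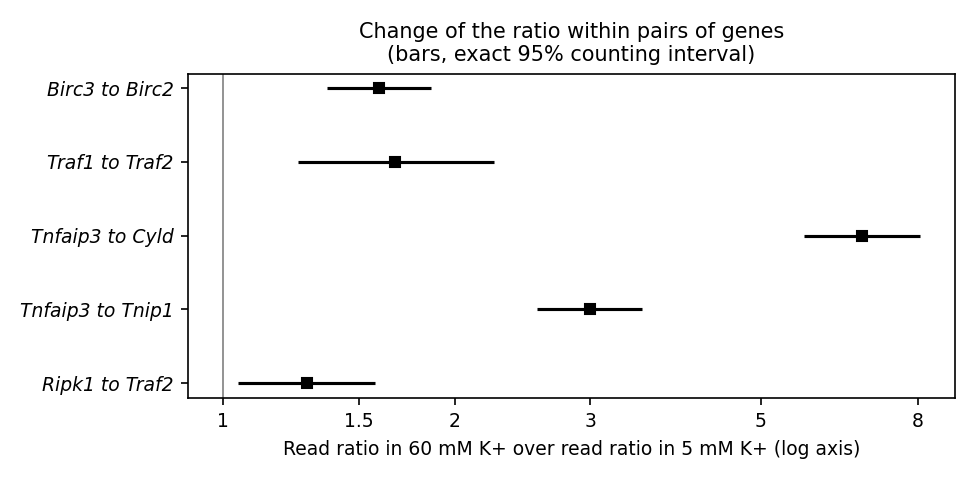
For 5 pairs of genes, the ratio of their reads in 60 mM K+ divided by the same ratio in 5 mM K+ (log axis), with bars for the exact 95% counting interval and a grey line at 1, no change. The Tnfaip3 to Cyld ratio changed most, at 6.76, and the interval of Ripk1 to Traf2 comes nearest to 1, at 1.05.

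Tnfaip2 and Litaf had the highest FPKM of the group in both libraries. Tnfaip2 (chromosome 12, 112680680 to 112693229), a relative of the exocyst subunits that helps to form membrane protrusions, had 1281 control reads against 5168. This 4.33-fold difference equals 2.11 (2.03 to 2.2) on the log2 scale, and 1.91 with total-count scaling. Litaf (chromosome 16, 10959368 to 11066250), which encodes a membrane protein of late endosomes and lysosomes, had 900 and 2549 reads, or 1.60 (1.49 to 1.71). Together, Tnfaip2, Tnfaip3 and Litaf took 47.97% of the reads of the group at 5 mM K+ and 71.45% at 60 mM K+. Tnfaip2 is well expressed in endothelium and myeloid cells. Beside its value stand the summed endothelial markers, with a log2 ratio of 0.46 between libraries, and the summed macrophage markers, with -0.10. Of the endothelial markers, Pecam1 (0.50), Cdh5 (0.83), Vwf (0.28), Tie1 (0.49), Tek (0.25) and Nos3 (1.10) were higher in 60 mM K+. Kdr (-1.10, 168 and 73 reads) and Emcn (-0.83, 21 and 11 reads) were lower. Single macrophage markers differed in direction, from -0.78 (Lyz2) to 0.74 (Cd14). The macrophage sum therefore gives no direction for its cell type. The part of cell composition in the Tnfaip2 value was not tested.

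Levels between genes were compared as FPKM, which scales for gene length. In 5 mM K+ the order began with Tnfaip2 at 77.2 FPKM, Litaf at 66.7, Birc2 at 42.9 and Birc3 at 30.1, and A20 stood only in the seventh place, at 16.8 FPKM. The lower part of the order held Tnip1 at 21.7 FPKM, Ripk1 at 17.2, Cyld at 8.17, Traf2 at 8.12 and Traf1 at 5.88. The Poisson intervals of neighbors in this order overlapped for Ripk1 and Tnfaip3 and for Cyld and Traf2. In 60 mM K+ Tnfaip2 at 289.0 FPKM and Litaf at 175 again led, and Tnfaip3 came next at 87.7 FPKM. Birc3 at 56.9 FPKM stood above Birc2 at 50.8, although their intervals overlapped. Tnip1 followed at 37.6 FPKM and Ripk1 at 23.7, and Traf1 at 10.6 could not be told apart from Traf2 at 8.70. Cyld was last, at 6.29 FPKM. In each pair of relatives, Birc3 with Birc2 and Traf1 with Traf2, the gene with the lower FPKM in 5 mM K+ had the higher value in 60 mM K+, with overlapping intervals.

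**Figure D3:**
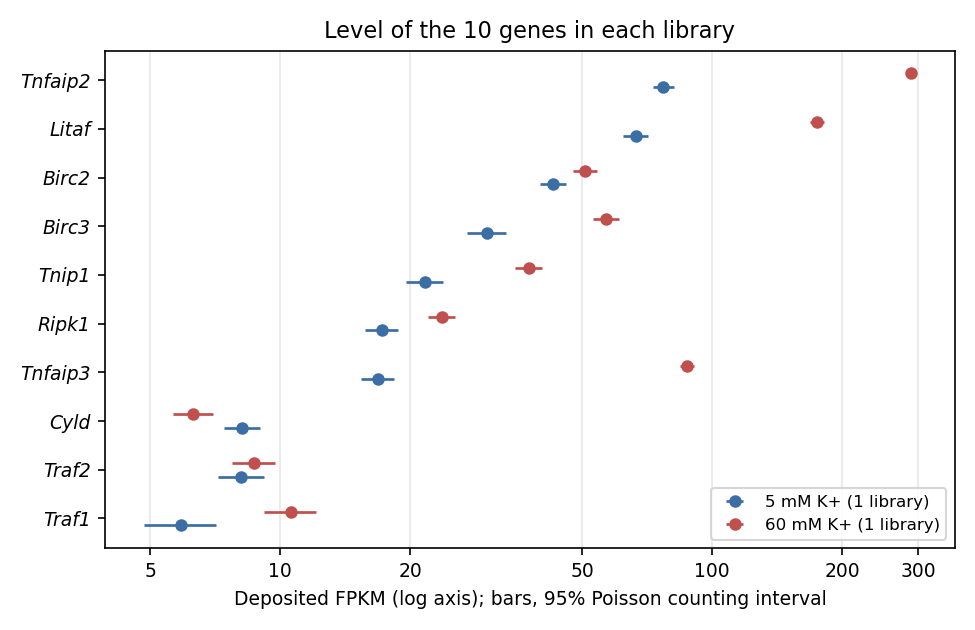
Deposited FPKM (log axis) of the 10 genes in the 5 mM K+ library (blue) and the 60 mM K+ library (red), with bars for the 95% Poisson counting interval, ordered by the level in 5 mM K+. Tnfaip3 moves from 16.8 to 87.7 FPKM, past 4 genes that stood above it in the control library, and Cyld is the only gene whose red point lies left of the blue one.

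The genes beside these 10 on the chromosome were looked at as well. The nearest measured gene on each side gave 18 neighbors outside the group, with a median log2(fold-change) of 0.29, of which 3 of 18 lay above 1 and 2 of 18 below -1, beside 5.54% and 5.86% of all genes. Tnfaip3 lies far from both of its neighbors, Perp at 144 kb with 0.29 (0.17 to 0.40) and Ifngr1 at 576 kb with 0.08 (-0.03 to 0.19). Gpx3 ends 0.41 kb from the 3′ end of Tnip1 and had 0.08 (0.01 to 0.14), and Anxa6 on the other side had 0.10 (0.03 to 0.16). Snn, 0.141 kb from the outermost annotated start of Litaf and on the opposite strand, had 0.42 (-0.05 to 0.91). The consensus match of Litaf shown above lies at another annotated start. Socs1 on the far side had 0.40 (-0.13 to 0.93). Beside Birc3 and Birc2, Yap1 had 0.44 (0.34 to 0.54) and Tmem123 0.32 (0.24 to 0.40). The neighbors of Tnfaip2 went the other way, with 1200009I06Rik, also called Exoc3l4 and itself related to the exocyst, at -1.02 (98 and 45 reads) and Gm266 at -1.43 (29 and 10 reads). Beside Traf1, Phf19 had 134 and 299 reads, or 1.26 (0.96 to 1.56), and the pseudogene Gm13450 had 2 and 8 reads, with an interval from -0.22 to 5.37. Next to Cyld, Nod2, which encodes an intracellular sensor of bacterial cell wall and was singled out after its value was seen, had 100 and 373 reads, or 2.0 (1.68 to 2.33). Nod2 and Cyld lie 8.55 kb apart on the same strand.

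**Figure D4:**
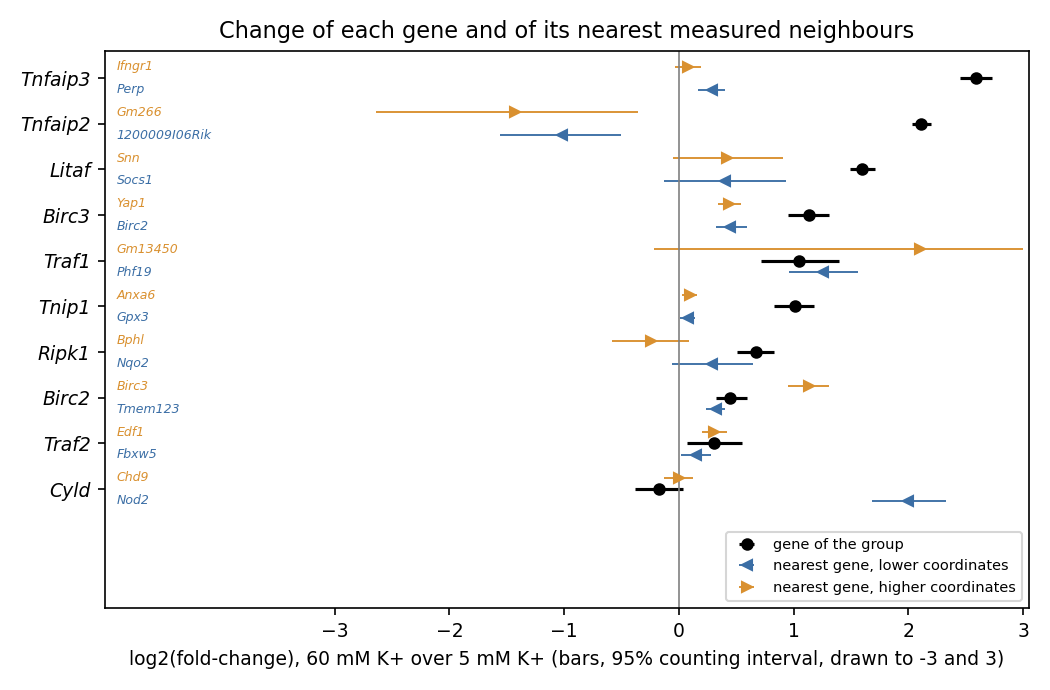
log2(fold-change) of each of the 10 genes (black) and of the nearest tested gene at lower (blue) and higher (orange) coordinates, whose names stand at the left, with bars for the 95% counting interval drawn to -3 and 3. Of 18 neighbors, 3 lie above 1 (Nod2 beside Cyld, Phf19 and Gm13450 beside Traf1) and 2 below -1 (both neighbors of Tnfaip2).

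The rest of the pathway was followed through 93 genes in 7 lists by role, of which 92 were matched and 84 reached 10 reads. Of these 84 genes, 16 (19.05%) lay above 1 and 3 below -1, beside 5.54% and 5.86% of all genes. Their median log2(fold-change) was 0.17. With total-count scaling 7 lay above 1 and 6 below -1, beside 601 and 1285 of the 14829 genes, and the median was -0.04. The lists were chosen with earlier results of these data known, so nothing is read from these shares. The same shares of all genes stand beside the counts of each list below. Ligand transcripts were scarce. Tnf itself had 2 control reads against 13, or 2.80 with a counting interval from 0.66 to 5.99. Of the other ligands, Tnfsf10 was the most abundant, with 83 and 44 reads and -0.81 (-1.38 to -0.27), and Tnfsf14, Cd40lg and Fasl had 0 reads in both libraries, which allows up to 0.266 CPM in 5 mM K+ and 0.286 CPM in 60 mM K+. The ligand list (5 of 11 matched genes reached 10 reads) had a median of 0.01 (-0.20 with total counts), with 1 gene above 1 and 0 below -1.

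Receptors were more abundant and 3 of 14 lay above 1. Tnfrsf9, the co-stimulatory receptor 4-1BB, had 4 control reads against 81, or 4.44 (3.03 to 6.35). Tnfrsf10b, the mouse TRAIL receptor, had 1.16 (0.83 to 1.5) and Tnfrsf1b, the TNF receptor found on fewer cell types, 1.10 (0.83 to 1.37). The main TNF receptor gene, Tnfrsf1a, was the most abundant, with 1352 and 1964 reads and 0.64 (0.54 to 0.74). On the other side, Tnfrsf25 had 49 and 12 reads and -1.93 (-2.97 to -1.0). The median of the receptor list was 0.50, and with total-count scaling 1 receptor lay above 1 and 2 lay below -1.

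Downstream of the receptors, the kinase complexes and the death arm had medians near 0. In the list of receptor-complex and IKK genes, 1 of 19 was above 1, Traf4 at 1.04 (0.50 to 1.59), 0 were below -1, and the median was -0.05. Ikbkb, the catalytic kinase that marks NF-kB inhibitors for destruction, was its most abundant gene, with 1025 and 921 reads and -0.05 (-0.18 to 0.08). In the cell death list, 1 of 12 was above 1, the NOD adaptor kinase Ripk2 at 1.27 (0.97 to 1.58), and the median was 0.02 (-0.19 with total counts). Cflar, the inhibitor of caspase-8 activation, led that list with 1204 and 1051 reads and -0.09 (-0.22 to 0.03). In the list of A20 partners and deubiquitinases, which also holds other adaptors, 1 of 13 was above 1 and the median was 0.25. It was Tifa, an adaptor to TRAF proteins, at 1.05 (0.69 to 1.42). Tax1bp1, an adaptor of A20, was the most abundant gene of that list, with 1690 and 1879 reads and 0.25 (0.16 to 0.35). None of these 3 lists had a gene below -1, 0 in each. With total counts, the receptor-complex list had 0 genes above 1 and 1 below -1, and the list of A20 partners had 0 above 1.

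Relatives by family or name did not move as a block. Of 10 genes of the exocyst-like, TNFAIP and Litaf families, 2 were above 1 and 2 below -1, and the median was 0.33. With total counts, 0 were above 1 and 2 below -1, and the median was 0.12. Tnfaip6, which encodes a hyaluronan-binding protein, had 276 and 592 reads and 1.20 (0.99 to 1.41), while Tnfaip8l3 had 31 and 6 reads and -2.27 (-3.82 to -0.99). Tnfaip1 was the most abundant, with 973 and 875 reads and -0.05 (-0.19 to 0.08), and Exoc3l had 8 and 17 reads and 1.19 (-0.10 to 2.61). The NF-kB subunits and inhibitors had values nearer to those of the 10 genes. Both sets were chosen with values known, so nothing is read from this likeness. Of 11, 7 were above 1 and 0 below -1, beside 5.54% and 5.86% of all genes. The median was 1.08, and the lowest value was 0.90. Nfkbia, the classic feedback inhibitor of NF-kB, had 2312 and 6610 reads and 1.62 (1.55 to 1.69), and Bcl3 had 156 and 914 reads and 2.65 (2.41 to 2.91). The others above 1 were Rel at 1.54, Relb at 1.46, Nfkbid at 1.17, Nfkbib at 1.08 and Nfkbie at 1.04. With total-count scaling 4 of the 11 were above 1.

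**Figure D5:**
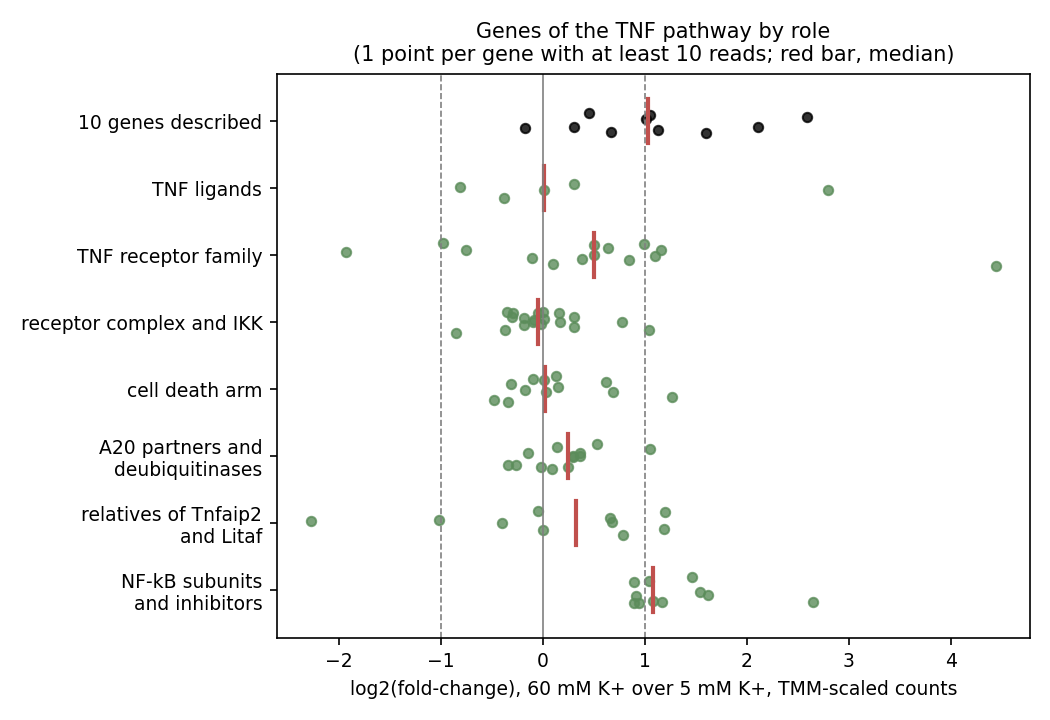
log2(fold-change), 60 mM K+ over 5 mM K+, of the 10 genes and of each tested gene in 7 lists of the TNF pathway, 1 point per gene, with a red bar at the median and dashed lines at -1 and 1. The medians are 1.03 for the 10 genes and 1.08 for NF-kB subunits and inhibitors, and lie between -0.05 and 0.50 in the other 6 lists, all with TMM scaling; with total counts the medians of the ligand and cell death lists fall below 0.

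The 5 genes whose TMM-scaled log2 CPM lay nearest to that of Tnfaip3 in both libraries were Il6, Dnajb1, Cxcl1, Tubb6 and Procr. Their distances were from 0.415 to 0.71 on the log2 scale, and with 2 libraries this likeness is one of level and difference only. Il6 came closest, with 631 and 3152 reads.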

How the data were processed

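The members and gene lists were chosen with earlier results of these data known. According to the study's methods, the authors used TopHat2 for alignment to mm9 and, before testing, scaled the counts of each library by a factor from edgeR. The submitters' processing notes name edgeR 3.0.8 and, without a role, HTSeq 0.6.1, and the annotation is not given in the sources used here. The authors deposited raw read counts per gene, made without strand being stated, and FPKM values scaled by gene length and total counts (the counts divided by FPKM differed between libraries by the ratio of total reads, 1.08). Genes were named from GENCODE vM1 (NCBIM37), which holds 32601 of 55573 identifiers.

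edgeR 4.0.16 under R 4.3.3 was used for TMM factors, giving effective library sizes of 11266853 and 10502077 reads. A count of 0 entered as 0.5. Intervals are 95% Clopper-Pearson intervals of the share of a gene's reads in the depolarized library, exact conditional intervals for ratios of ratios, and Poisson intervals for FPKM (SciPy 1.17.1). A count of 0 allows 3 reads. Called means an absolute log2(fold-change) above 1, the fold threshold of the methods, among genes whose reads over the libraries reached 10. Named are the 10 genes, genes of the lists past the threshold and the most abundant gene of each, the nearest neighbors, and the 5 genes nearest to Tnfaip3 in both libraries. Tnfsf12 was not analysed here. Also tried were scaling by total counts, by the upper quartile and by DESeq2 1.42.0 (median of ratios), and FPKM with pseudocounts of 0.1 and 1. Further settings were other minimum counts, the nearest end of the interval, other promoter windows and a random-sampling test. That test (q under 0.005) compares these libraries and not the conditions. It was computed here and gave more genes than the study listed with the DEGSeq package. The calculations were tested on simulated data.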

Additional observations from a re-analysis of the deposited data

How the results depend on the processing

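With 1 library per condition, the settings show how counting, scaling and filters move the values, not how far animals differ. No paired analysis was possible because 5 mM K+ and 60 mM K+ had 1 library apiece. The 6 genes of the group above 1 became 5 with the upper quartile and with the median of ratios. Tnip1 was at 0.96 and 0.99 there, and 778 and 811 of all genes lay above 1. The 6 genes became 3 (Tnfaip3, Tnfaip2 and Litaf) with total counts, with FPKM and a pseudocount of 0.1 or 1, and with the nearest interval end. TMM adds 0.21 to every log2(fold-change) over total counts. Of the alternative values of the 10 genes, 28 lay within the counting interval and 22 outside it, and no gene above 1 changed sign.

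Of all genes, 822 lay above 1 and 869 below -1, and with total counts 601 and 1285. Above 1 there were 497 with FPKM and a pseudocount of 0.1, 240 with 1, 3081 with no minimum, 412 with at least 50 reads, 263 by the nearest interval end, 452 with the random-sampling test and 212 with at least 500 reads, a minimum added after the data were seen. Below -1 there were 193 with FPKM and a pseudocount of 1, 2491 with no minimum, 211 with at least 50 reads, 73 by the nearest interval end, 235 with the random-sampling test and 8 with at least 500 reads. With at least 500 reads, 5 of 9 genes of the group and 3.24% of all genes lay above 1. The counts of the random-sampling test exceed those of the paper at the same fold and q thresholds. Of the group, the paper's list holds Tnfaip3, Tnfaip2 and Litaf, and it does not hold Birc3, Traf1 or Tnip1.

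Of the pathway lists, 16 genes lay above 1 and 3 below -1. Above 1 there were 7 with total counts, 7 and 5 with FPKM (pseudocounts of 0.1 and 1), 5 by the nearest interval end and 8 with at least 500 reads. Below -1 there were 6 with total counts, 5 with FPKM and a pseudocount of 0.1, 0 by the nearest interval end and 0 with at least 500 reads. Fewer genes qualify by construction with higher minimums and interval ends. Total counts lower every log2(fold-change) by 0.21, and FPKM carries the same total-count scaling. A pseudocount also shrinks each log ratio, most at low FPKM. From 1000 bases before to 200 after the start, 7 of 10 genes and 37.52% of all genes had the NF-kB consensus, and Litaf had a full cAMP response element. The searches with 1 start per gene and with RefSeq starts were added after the data were seen.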

Other observations

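Some genes linked to the sensor NOD2 or to another bacterial signal are given as values only, with no list of their own and no test. Ripk2, Xiap and Tifa belong to the pathway lists above, and Nod2 does not. Nod2, the neighbor of Cyld, had 100 control reads against 373, and Ripk2, the kinase that NOD2 recruits, had 130 and 292 reads. Nod2, Ripk2 and Tifa were picked after their values were seen. Tifa, an adaptor that links another bacterial sugar signal to TRAF proteins, had 97 and 187 reads. Xiap, a ligase that acts in NOD2 signaling as well as on caspases, had 848 and 701 reads, or a log2(fold-change) of -0.17 (-0.32 to -0.03).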
